A study of Mus musculus with 9 samples.

Results

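Genes of vasoactive peptides, nitric oxide and prostaglandins were followed in b.End3 cells after photodynamic therapy (PDT). They were the 10 genes Ace, Edn1, Ece1, Ednrb, Nos3, Nos2, Ptgs1, Ptgs2, Ptges and Ptgis, taken by gene name from the 54532 genes listed, and each name matched 1 row. RNA sequencing covered 9 libraries in 3 groups of 3. Ctrl cells are labelled untreated. Ep1 and Ep2 cells received porfimer sodium, a porphyrin photosensitizer, at 300 µg/mL for 90 min and then 635 nm laser light at 100 mW/cm2, to a dose of 10 J/cm2 in Ep1 and 20 J/cm2 in Ep2. All 3 groups are 1 immortalized mouse line, labelled as of C57BL/6 background and as brain microvessel endothelial cells. The culture notes, however, call it a rat line. Libraries of cells given only the photosensitizer or only the light are not analysed here, so the effects of porfimer sodium and of light cannot be told apart. The sources used here do not give the time between irradiation and lysis, nor whether the 3 libraries of a group came from separate cultures, so the p-values measure only the spread between these libraries, which may be technical.

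Endothelial cells set vessel tone with a few short-lived signals. Endothelin-converting enzyme (Ece1) cuts the precursor made by Edn1 to endothelin-1, a strong constrictor, and Ednrb is a receptor that clears endothelin and releases dilators. Angiotensin-converting enzyme (Ace) forms the constrictor angiotensin II and breaks down bradykinin. Nos3 is the endothelial and Nos2 the inducible nitric oxide synthase. The cyclooxygenases Ptgs1 (COX-1, mostly constitutive) and Ptgs2 (COX-2, inducible) turn arachidonic acid into prostaglandin H2, from which Ptges makes prostaglandin E2 and Ptgis makes prostacyclin, the dilator typical of endothelium.

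Expression was measured in FPKM, fragment counts scaled by gene length and library size, so levels of different genes are compared per length. The libraries held 16240688 to 19509225 fragments on genes. Where a gene had none, up to 3 fragments could have been missed by counting error alone. The markers of the labelled cell type gave a mixed picture. Of 18 endothelial markers, 9 stayed under 0.2 FPKM in every library and 4 of them (Emcn, Erg, Robo4 and Slco1a4) were at 0 throughout. The Ctrl mean was 0.143 FPKM ± 0.0558 (SD, n = 3) for Pecam1 and 0.857 FPKM ± 0.0471 (SD, n = 3) for Cdh5, which encode junction proteins that define endothelium. The 5 endothelial markers tested had Ctrl means of 93.2 FPKM ± 1.32 (SD, n = 3) for Slc2a1, 59.4 FPKM ± 2.05 (SD, n = 3) for Ly6c1, 6.9 FPKM ± 0.206 (SD, n = 3) for Flt1, 2.09 FPKM ± 0.291 (SD, n = 3) for Egfl7 and 1.32 FPKM ± 0.127 (SD, n = 3) for Eng. Of 10 epithelial markers, 6 stayed under 0.2 FPKM in every library, while Krt8 stood at 640 FPKM ± 15.9 (SD, n = 3), Krt18 at 237 FPKM ± 6.45 (SD, n = 3) and Krt19 at 174 FPKM ± 4.25 (SD, n = 3) in Ctrl. The leukocyte markers summed to no more than 0.275 FPKM in any library.

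Start regions are shown for Ptgs2, Ptges and Ace, which had the largest fitted differences in Ep2 among the 5 members tested, and for Ptgs1 as the constitutive partner of Ptgs2. RefSeq (GRCm38.p6) gave start regions for 7 of the 10 members. Each window has 300 bases, 250 before the transcription start and 50 from it on, and is written 5′ to 3′ on the strand of the gene. The windows lie at chr1:150099781-150100080 (plus strand), chr2:36230176-36230475 (plus strand), chr2:30903248-30903547 (minus strand) and chr11:105967698-105967997 (plus strand). Capitals mark matches to the motifs searched, on either strand.
Ptgs2: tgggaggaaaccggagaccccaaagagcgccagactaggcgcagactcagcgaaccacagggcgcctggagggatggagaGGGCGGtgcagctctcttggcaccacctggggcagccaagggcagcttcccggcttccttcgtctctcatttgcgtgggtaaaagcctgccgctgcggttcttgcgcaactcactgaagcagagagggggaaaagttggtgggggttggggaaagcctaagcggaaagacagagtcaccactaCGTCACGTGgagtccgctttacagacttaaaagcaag
Ptgs1: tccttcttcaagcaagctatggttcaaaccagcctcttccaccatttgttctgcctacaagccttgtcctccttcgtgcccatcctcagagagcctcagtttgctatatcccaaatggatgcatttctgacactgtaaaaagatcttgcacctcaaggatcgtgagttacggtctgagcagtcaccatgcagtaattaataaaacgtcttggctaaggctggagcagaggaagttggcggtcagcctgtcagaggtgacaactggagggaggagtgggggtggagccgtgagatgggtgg
Ptges: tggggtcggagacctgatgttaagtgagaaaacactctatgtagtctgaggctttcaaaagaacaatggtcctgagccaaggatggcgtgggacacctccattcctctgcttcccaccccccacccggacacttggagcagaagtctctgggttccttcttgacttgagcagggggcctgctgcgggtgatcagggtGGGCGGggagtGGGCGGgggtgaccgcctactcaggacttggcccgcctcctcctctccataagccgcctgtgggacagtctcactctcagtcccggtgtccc
Ace: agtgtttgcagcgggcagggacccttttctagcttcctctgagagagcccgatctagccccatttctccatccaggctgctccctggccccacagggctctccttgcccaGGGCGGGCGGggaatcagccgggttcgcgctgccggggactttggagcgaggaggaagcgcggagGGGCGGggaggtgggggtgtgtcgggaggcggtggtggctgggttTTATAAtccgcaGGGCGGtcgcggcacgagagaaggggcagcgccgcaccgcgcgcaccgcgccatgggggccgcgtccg

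The motifs were the core TGACG of the cyclic AMP response element, the E-box CACGTG, the AP-1 site TGANTCA, the GC box GGGCGG and the TATA core TATAA. With the start at position 0, the Ptgs2 window held the response element core (read as CGTCA) at positions 13 to 17 and an E-box at 16 to 21, which share 2 bases, and a GC box at -170 to -165. The Ace window held 4 GC boxes, of which the first pair overlaps. It also held the TATA core on both strands, at -29 to -25 and, read as TTATA, at -30 to -26. This window surrounds the first of 2 Ace starts in RefSeq. The window of the other start, 7244 bases further in, held none of the motifs and is not shown. The Ptges window held 2 GC boxes, and its RefSeq start lies 26566 bases from the outer end of the gene as listed. The Ptgs1 window held none of the 5 motifs. Of 32851 start regions of the same length, 20.8% held the response element core, 7.15% the E-box, 7.81% the AP-1 site, 35.7% the GC box and 24.9% the TATA core. A match describes the letters only.

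The members ranged from among the most expressed genes to none detected. In Ctrl cells, Ptges, Ptgs1 and Ptgs2 lay between 32.6 and 40.1 FPKM, at percentiles 93.8, 93.1 and 92.8 of the genes with a value above 0. They were followed by Ece1 (percentile 77.7), Ace (52.8) and Nos2 (45.6). Nos3, Ptgis and Edn1 were near 0 (under 0.2 FPKM in every library) and Ednrb was at 0 in all 9 libraries. In this order, the Ctrl ranges of neighbours overlapped between Ptgs1 and Ptgs2 and among Ptgis, Nos3, Edn1 and Ednrb, and were separate elsewhere. In Ep1 and Ep2, Ptgs2 stood first, with no overlap with Ptges, which came next.

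Of the members, 5 reached 1 FPKM in 3 or more libraries and were tested (Ace, Ece1, Ptgs1, Ptgs2 and Ptges), and the other 5 did not. Past the test means a Benjamini-Hochberg adjusted p below 0.05 in limma over the 11727 genes tested, and a DEG also has an absolute log2 fold change above 0.6. Fold changes are on the scale of log2(FPKM + 1), which understates the change of low genes. In Ep1, 1 of the 5 tested members (Ptgs2) was past the test against Ctrl, with 11.3% of all tested genes past it (6.32% higher and 4.97% lower) and 0.793% DEGs. The number of genes past it in Ep1, 1324, ranged from 192 without replicate 2 of Ctrl to 2192 without replicate 1 of Ep2. In Ep2, 4 of 5 were higher than in Ctrl (Ace, Ece1, Ptgs2 and Ptges), with 53.2% of all genes past the test (23.9% higher and 29.3% lower). The higher genes made up 44.9% of those past the test, and 52.7% after median centring of the libraries. Ace and Ptgs2 were DEGs and higher in Ep2, as were 3.3% of all genes, while 9.17% of all genes were DEGs in either direction. Between the doses, Ace and Ptges were higher in Ep2 than in Ep1, with 44.0% of all genes past the test (18.8% higher and 25.2% lower) and 5.9% DEGs (1.94% higher and 3.97% lower). The higher genes made up 42.8% of those past the test between the doses, and 55.5% after the same centring. No member was past the test and lower in any of these comparisons. The median log2 fold change of the 5 tested members was -0.01 in Ep1 and 0.33 in Ep2 against Ctrl, and that of all tested genes -0.009 and -0.029. Both treated groups share the Ctrl libraries. In bulk RNA, fewer cells of a type and less RNA per cell cannot be told apart.

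**Figure D1:**
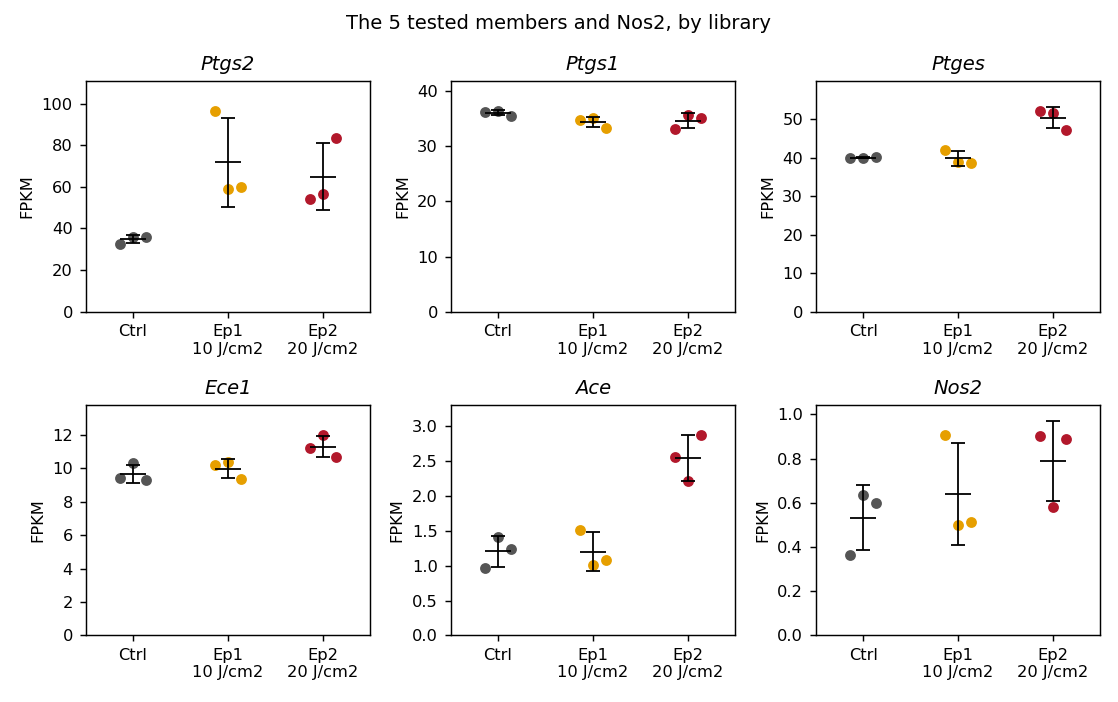
FPKM of the 5 tested members and Nos2 in each library (points), with the mean and SD of each group of 3 libraries (bars); each vertical axis starts at 0. Ptgs2 was higher in all 6 treated libraries, Ptges, Ece1 and Ace were highest in the 3 Ep2 libraries, and the Nos2 groups overlap.

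Ptgs2 was the member with the largest difference in Ep1. This gene (ENSMUSG00000032487, chromosome 1, 150100031 to 150108227 on GRCm38, as are all positions here) measured 32.6, 36.0 and 36.1 FPKM in Ctrl, 96.4, 58.9 and 59.9 FPKM in Ep1, and 54.4, 56.7 and 83.4 FPKM in Ep2. All 6 treated libraries lay above the 3 Ctrl libraries, and replicate 1 of Ep1 and replicate 3 of Ep2 stood above the others of their groups. The Ep1 mean of 71.8 FPKM ± 21.4 (SD, n = 3) was 2.06-fold the Ctrl mean of 34.9 FPKM ± 2.02 (SD, n = 3), or 0.98 ± 0.22 (SE) on the log2 scale (adjusted p = 0.0322, limma). Groups without overlap were found for 41.3% of all genes in that comparison. Without replicate 1 of Ep1 the log2 fold change was 0.75 with an adjusted p of 0.0616 in limma. Leaving out any Ctrl library or replicate 3 of Ep1 gave adjusted p-values of 0.0547 to 0.1. The Ep1 call was lost in each of these fits. Over all fits with 1 library left out, the log2 fold change in Ep1 ranged from 0.75 to 1.1. The Ep2 mean of 64.8 FPKM ± 16.1 (SD, n = 3) was 1.86-fold the Ctrl mean, or 0.85 ± 0.22 (SE) on the log2 scale (adjusted p = 0.0126, limma), and it remained past the test whichever library was left out (adjusted p up to 0.0397). Groups without overlap made up 59.7% of all genes there. The doses did not differ beyond the spread, with a log2 fold change of Ep2 with Ep1 of -0.13 and a 95% interval of -0.64 to 0.38.

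Ptgs1, the other cyclooxygenase (ENSMUSG00000047250, chromosome 2, 36230426 to 36252272), stayed nearly level. It measured 36.3, 36.4 and 35.6 FPKM in Ctrl, 34.7, 35.1 and 33.4 FPKM in Ep1, and 33.1, 35.7 and 35.2 FPKM in Ep2. The Ep1 libraries lay just below the Ctrl libraries and the Ep2 libraries overlapped them. Separate groups were found for 41.3% of all tested genes in Ep1 with Ctrl. The 95% interval of the log2 fold change was -0.16 to 0.03 in Ep1 (adjusted p = 0.307, limma) and -0.15 to 0.04 in Ep2 (adjusted p = 0.273, limma).

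The balance of both cyclooxygenases was set out as a ratio within each library. Ptgs2 per Ptgs1 was 0.897, 0.988 and 1.02 in Ctrl, 2.78, 1.68 and 1.79 in Ep1, and 1.64, 1.59 and 2.37 in Ep2. Every treated library was above every Ctrl library. Since Ptgs1 stayed nearly level, this restates the separation of Ptgs2 and is no separate result. Separate groups were found for 41.3% of all tested genes in Ep1 with Ctrl and 59.7% in Ep2 with Ctrl. The mean ratio was 0.967 ± 0.0624 (SD, n = 3) in Ctrl, 2.08 ± 0.603 (SD, n = 3) in Ep1 and 1.87 ± 0.437 (SD, n = 3) in Ep2. The exact two-sided permutation test gave p = 0.1 for each treated group against Ctrl, the smallest value that 3 against 3 libraries allow, and p = 0.5 for Ep2 with Ep1.

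Ptges, the inducible synthase of prostaglandin E2 (ENSMUSG00000050737, chromosome 2, 30889471 to 30929863, minus strand), rose in Ep2. It measured 39.8, 40.0 and 40.1 FPKM in Ctrl, 41.9, 38.9 and 38.6 FPKM in Ep1, and 52.1, 51.7 and 47.2 FPKM in Ep2. The 3 Ep2 libraries lay above all others, and the Ep1 libraries lay around the Ctrl libraries. Separate groups were found for 59.7% of all tested genes in Ep2 with Ctrl. The Ep2 mean of 50.3 FPKM ± 2.76 (SD, n = 3) was 1.26-fold the Ctrl mean of 39.9 FPKM ± 0.144 (SD, n = 3). The log2 fold change was 0.33 against Ctrl (SE 0.05, adjusted p = 0.000503, limma) and 0.33 against Ep1 (SE 0.05, adjusted p = 0.000672, limma), and groups without overlap made up 54.4% of all genes between the doses. In Ep1 against Ctrl it was -0.01, with a 95% interval of -0.12 to 0.11. A gene model on the same strand, Gm13400, overlaps Ptges and reached at most 0.281 FPKM.

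Ptgis, the prostacyclin synthase (ENSMUSG00000017969, chromosome 2, 167191805 to 167240604, minus strand), was near 0. It had 6, 6 and 2 fragments in Ctrl, 1, 0 and 8 in Ep1, and 2, 2 and 3 in Ep2, or 30 in all and at most 0.168 FPKM in a library. The groups overlapped, and the exact permutation p was 0.8 for Ep1 and 0.2 for Ep2 against Ctrl. With 3 libraries against 3 this test cannot give a p below 0.1.

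**Figure D2:**
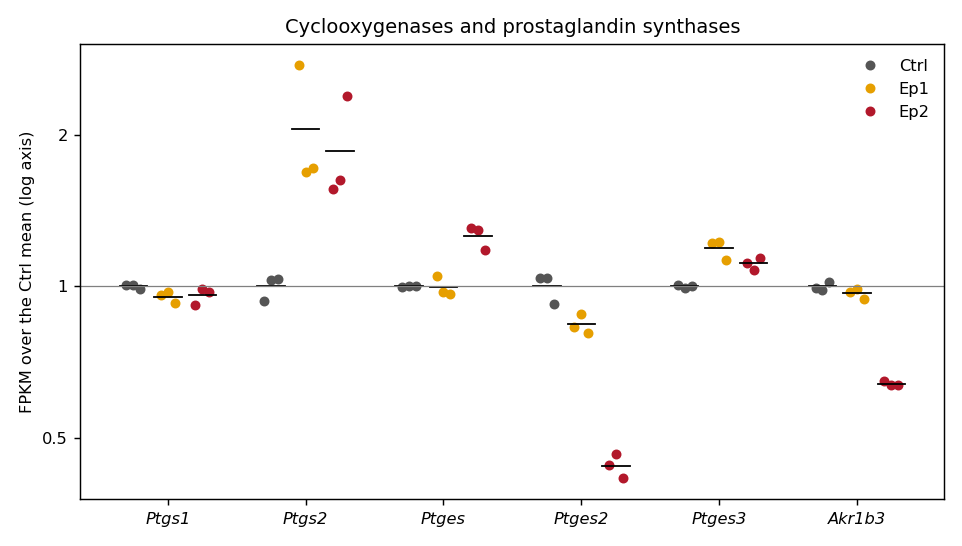
FPKM over the Ctrl mean of the same gene, on a log axis, for the cyclooxygenases and for prostaglandin synthases in each library (points), with the mean of each group (lines). Ptgs2 and Ptges3 lie above the Ctrl mean in all treated libraries, and Ptges in the 3 Ep2 libraries and replicate 1 of Ep1. Ptges2 and Akr1b3 lie lowest in Ep2.

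Ace, the angiotensin-converting enzyme (ENSMUSG00000020681, chromosome 11, 105967945 to 105989964), was higher in Ep2. It measured 0.971, 1.41 and 1.24 FPKM in Ctrl, 1.52, 1.01 and 1.08 FPKM in Ep1, and 2.56, 2.22 and 2.88 FPKM in Ep2, which were 258, 220 and 253 fragments. The Ep1 and Ctrl libraries overlapped, and every Ep2 library lay above both groups. Groups without overlap made up 59.7% of all genes in Ep2 with Ctrl and 54.4% in Ep2 with Ep1. The Ep2 mean of 2.56 FPKM ± 0.329 (SD, n = 3) was 2.11-fold the Ctrl mean of 1.21 FPKM ± 0.222 (SD, n = 3). The log2 fold change was 0.69 against Ctrl (SE 0.12, adjusted p = 0.00097, limma) and 0.69 against Ep1 (SE 0.12, adjusted p = 0.0013, limma). The pseudocount lowers the fold of a gene at this level, and on the recovered fragments with voom the log2 fold change was 1.08 against Ctrl. In Ep1 against Ctrl it was -0.01, with a 95% interval of -0.27 to 0.26.

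The study also measured Ace by quantitative PCR, and its primers are shown since they decide which Ace transcripts such a measurement sees.
Forward primer: tcccagtccagacagtctcc
Reverse primer: ccaggaaattgacgcggttg

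Of the 5 Ace transcripts in the GENCODE M39 annotation, 1 (number 203, 3649 bases) held both primers whole, with the forward primer at base 3074, the reverse primer at base 3219 and a product of 165 bases. The reverse primer matched 4 of the 5 transcripts, among them the 2 long ones (5208 and 5205 bases). The longest run of the forward primer in any other transcript was 8 bases. The FPKM values sum all transcripts of the gene and do not separate them.

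Markers of some cell types differed between Ep2 and Ctrl. The 18 endothelial markers summed to 161 to 168 FPKM in Ctrl, 157 to 185 in Ep1 and 208 to 232 in Ep2. Of the 5 of them tested, 2 (Flt1 and Slc2a1) were past the test and higher in Ep2 than in Ctrl, beside 23.9% of all genes. Slc2a1 and Ly6c1 made up most of this sum, and Ly6c1, at 68.9 FPKM ± 15.1 (SD, n = 3) in Ep2, was not past the test. The 10 epithelial markers summed to 1030 to 1080 FPKM in Ctrl, 937 to 1040 in Ep1 and 1160 to 1370 in Ep2. Of the 4 tested, 3 (Epcam, Krt18 and Krt19) were past the test and higher in Ep2 than in Ctrl, beside 23.9% of all genes. Epcam (log2 fold change 0.61) and Krt19 (0.7) were also DEGs, as were 3.3% of all genes in that direction. Krt7 and Krt5 were at 0. The pericyte markers summed to 3.24 to 4.07 FPKM in Ctrl and 3.78 to 4.87 in Ep2, and the fibroblast markers to 41.7 to 43.8 and 41.2 to 49.6. Both sums overlapped between these groups, and none of their 3 tested markers passed the limma test there (0 of 3 also at an unadjusted p below 0.05). The part of these markers in the Ep2 differences of Ace, Ece1, Ptges and Ptgs2 was not tested.

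Ece1, the endothelin-converting enzyme (ENSMUSG00000057530, chromosome 4, 137862237 to 137965229), differed little. It measured 9.44, 10.3 and 9.29 FPKM in Ctrl, 10.2, 10.4 and 9.35 FPKM in Ep1, and 11.2, 12.0 and 10.7 FPKM in Ep2. The Ep2 libraries lay above the others by a narrow margin. Such separation was found for 59.7% of all tested genes in Ep2 with Ctrl and 54.4% in Ep2 with Ep1. The Ep2 mean of 11.3 FPKM ± 0.636 (SD, n = 3) was 1.17-fold the Ctrl mean of 9.69 FPKM ± 0.574 (SD, n = 3), or 0.2 ± 0.061 (SE) on the log2 scale (adjusted p = 0.019, limma). This call was lost without replicate 1 of Ctrl, replicate 3 of Ctrl or replicate 2 of Ep2 (adjusted p of 0.0628, 0.0635 and 0.0703). Against Ep1 the log2 fold change was 0.17 with an adjusted p of 0.05, just over the threshold.

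The peptide and the receptor of the endothelin system were not found beyond the counting limit. Edn1 (ENSMUSG00000021367, chromosome 13, 42301476 to 42307990) had 5 fragments in all 9 libraries, with 1 in a Ctrl library, 1 in an Ep1 library and 3 in an Ep2 library, and was at 0 in the other 6. A count of 0 allows a level of up to 0.0717 to 0.0845 FPKM for this gene. Ednrb (ENSMUSG00000022122, chromosome 14, 103814625 to 103844402, minus strand) had 0 fragments in every library, which allows up to 0.036 to 0.0423 FPKM. Of the 3 endothelin members, Ece1 was therefore the one with a measured level.

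Of the nitric oxide synthases, Nos2 was low and Nos3 near 0. Nos2 (ENSMUSG00000020826, chromosome 11, 78920787 to 78960254) measured 0.364, 0.637 and 0.598 FPKM in Ctrl, 0.908, 0.5 and 0.513 FPKM in Ep1, and 0.904, 0.581 and 0.887 FPKM in Ep2, from 31 to 76 fragments a library. The groups overlapped, with replicate 1 highest in Ep1. The Ep2 mean was 1.48-fold the Ctrl mean (exact permutation p = 0.3). With voom on the recovered fragments, where Nos2 passed the filter, the log2 fold change was 0.57 (SE 0.28, adjusted p = 0.0925).

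Nos3, the endothelial synthase (ENSMUSG00000028978, chromosome 5, 24364810 to 24384474), had 2, 4 and 4 fragments in Ctrl, 4, 4 and 3 in Ep1, and 13, 3 and 1 in Ep2. One Ep2 library, replicate 1, held more fragments than the other 2 of its group together. The highest level was 0.165 FPKM, and the exact permutation p was 0.5 for Ep1 and 0.9 for Ep2 against Ctrl. Atg9b, which overlaps Nos3 on the other strand, reached 1.02 FPKM, and since the sources do not say whether counting used strand, fragments of both genes may not be told apart. Of the other gene models on the opposite strand of a member, none exceeded 0.389 FPKM.

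**Figure D3:**
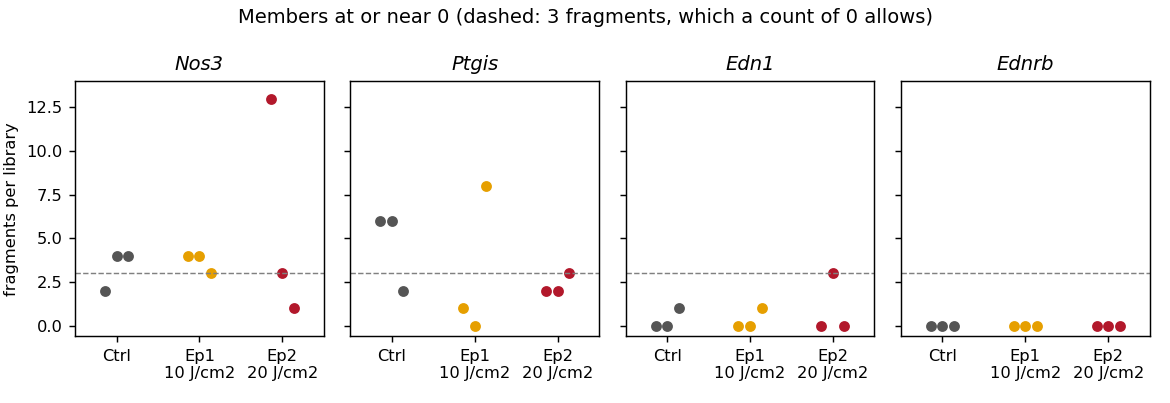
Fragments counted in each library (points) for the 4 members at or near 0; the dashed line marks 3 fragments, which a count of 0 allows. Nos3 reached 13 fragments in 1 Ep2 library, Ptgis stayed at 8 or fewer, Edn1 at 3 or fewer, and Ednrb at 0.

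**Figure D4:**
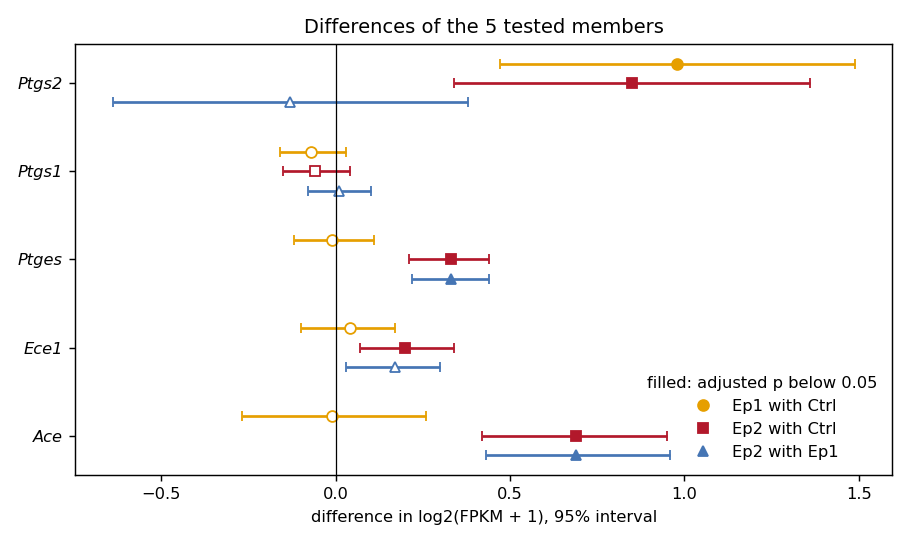
Differences in log2(FPKM + 1) of the 5 tested members with 95% intervals from limma, for the 3 comparisons (marker shapes); filled markers have an adjusted p below 0.05. Ptgs2 differs from Ctrl at both doses, Ace and Ptges differ in Ep2 from Ctrl and from Ep1, and the intervals of Ptgs1 include 0.

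Around the members, 114 further genes of the same pathways were listed, and all were found. Of these, 24 were at 0 and 58 under 0.2 FPKM in every library, and 40 were tested. In Ep1, 4 were past the test and higher and 2 lower, or 15.0% of those tested. In Ep2, 17 were higher and 12 lower than in Ctrl, or 72.5%, among them 8 DEGs. Between the doses 11 were higher and 10 lower in Ep2, or 52.5%. The Ep1 count of 6 depended on single libraries, with 1 past the test without replicate 2 of Ctrl and 10 without replicate 1 of Ep2. The shares of all tested genes in these comparisons were 11.3%, 53.2% and 44.0%. Of all tested genes, 9.17% were DEGs in Ep2 against Ctrl.

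The renin-angiotensin-kinin list held 23 genes, of which 8 were tested. The genes of the substrate Agt, of renin (Ren1) and of the receptors Agtr1a and Agtr2 were at 0, and the remaining type 1 receptor gene Agtr1b had 1 fragment in all 9 libraries; these 5 are named after their values were seen. In Ep2, 4 of the 8 were higher and 2 lower than in Ctrl, beside 23.9% and 29.3% of all tested genes. The median log2 fold change of the 8 was 0.17. Lnpep, an aminopeptidase that binds angiotensin IV, measured 13.3, 13.3 and 14.1 FPKM in Ctrl, 17.1, 17.4 and 18.3 in Ep1, and 22.5, 21.2 and 22.8 in Ep2. The 3 groups were separate and in the order of the dose. Of all tested genes, 41.3% had groups without overlap in Ep1 with Ctrl, 59.7% in Ep2 with Ctrl and 54.4% in Ep2 with Ep1. The log2 fold change of Lnpep was 0.35 in Ep1 (SE 0.047, adjusted p = 0.00652, limma) and 0.67 in Ep2 (SE 0.047, adjusted p = 8.04e-06, limma). Agtrap, which binds the type 1 angiotensin receptor, fell from 10.7 FPKM ± 0.618 (SD, n = 3) in Ctrl to 8.69 FPKM ± 0.503 (SD, n = 3) in Ep1 (adjusted p = 0.0214, limma), a call lost without replicates 1 or 2 of Ctrl or replicates 1 or 3 of Ep1 (adjusted p of 0.0663 to 0.0874). Prep, a peptidase that cleaves small peptides after proline, fell from 20.5 FPKM ± 0.359 (SD, n = 3) to 17.3 FPKM ± 0.633 (SD, n = 3) in Ep2 (adjusted p = 0.000975, limma). The remaining gene called in Ep1 was Atp6ap2, the prorenin receptor, also named after its values were seen (log2 fold change 0.21, adjusted p = 0.0274, limma).

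The endothelin list (Edn2, Edn3, Ednra, Ece2 and Kel) had no gene at the filter. Edn3 and Kel were at 0, Ednra reached at most 0.0762 FPKM and Ece2 at most 0.28 FPKM.

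The nitric oxide list held 24 genes, of which 15 were tested. In Ep2, 5 were higher and 5 lower than in Ctrl, beside 23.9% and 29.3% of all tested genes. The median log2 fold change of the 15 was -0.1. Prkg2, a cyclic GMP-dependent kinase, rose from 16.8 FPKM ± 1.02 (SD, n = 3) in Ctrl to 22.1 FPKM ± 0.777 (SD, n = 3) in Ep1 and 28.4 FPKM ± 3.92 (SD, n = 3) in Ep2 (adjusted p = 0.0308 and 0.000157, limma). Nosip, a ubiquitin ligase that binds nitric oxide synthase, fell from 22.1 FPKM ± 1.42 (SD, n = 3) to 19.2 FPKM ± 0.289 (SD, n = 3) and 14 FPKM ± 0.126 (SD, n = 3) (adjusted p = 0.0381 and 1.34e-05, limma). The Ep1 calls of both genes were lost when replicate 1 or 2 of Ctrl or any Ep1 library was left out, and that of Nosip also without replicate 2 of Ep2, with adjusted p-values of 0.0544 to 0.131. Spr, which makes the synthase cofactor tetrahydrobiopterin, fell from 15.7 FPKM ± 0.211 (SD, n = 3) in Ctrl to 9.54 FPKM ± 0.817 (SD, n = 3) in Ep2 (adjusted p = 2.2e-05, limma). Ass1, which rebuilds arginine from citrulline, measured 3.12, 2.71 and 2.63 FPKM in Ctrl and 1.39, 1.08 and 1.52 FPKM in Ep2 (log2 fold change -0.71, adjusted p = 0.00135, limma). Arg1, which breaks arginine down, measured 3.26, 3.26 and 3.34 FPKM in Ctrl and 3.91, 6.88 and 5.92 FPKM in Ep2 (log2 fold change 0.59, adjusted p = 0.00885, limma). The subunit genes Gucy1a2 and Gucy1b1 of the nitric oxide receptor were at 0 and Gucy1a1 reached 0.0147 FPKM, named after their values were seen.

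The prostaglandin list held 34 genes, of which 11 were tested. In Ep2, 5 were higher and 5 lower than in Ctrl, beside 23.9% and 29.3% of all tested genes. The median log2 fold change of the 11 was -0.18. The prostaglandin E2 synthases differed in direction. Ptges2, the membrane-associated type 2 synthase, measured 5.98, 5.98 and 5.32 FPKM in Ctrl, 4.79, 5.08 and 4.64 FPKM in Ep1, and 2.54, 2.67 and 2.39 FPKM in Ep2. Its Ep2 mean of 2.54 FPKM ± 0.14 (SD, n = 3) was 0.44-fold the Ctrl mean (log2 fold change -0.93, SE 0.062, adjusted p = 6.21e-06, limma). Ptges3, the cytosolic synthase that is also a cochaperone of HSP90, rose from 80.3 FPKM ± 0.564 (SD, n = 3) in Ctrl to 95.7 FPKM ± 4.23 (SD, n = 3) in Ep1 and 89.2 FPKM ± 2.36 (SD, n = 3) in Ep2 (adjusted p = 0.0105 and 0.0131, limma), and its Ep1 call was lost without replicate 2 of Ctrl (adjusted p = 0.0544). Akr1b3, an aldose reductase with prostaglandin F synthase activity, fell from 21.7 FPKM ± 0.406 (SD, n = 3) to 13.9 FPKM ± 0.218 (SD, n = 3) in Ep2 (adjusted p = 5.63e-06, limma). Abcc4, which exports prostaglandins, rose from 18.2 FPKM ± 0.497 (SD, n = 3) to 22.6 FPKM ± 1.54 (SD, n = 3) in Ep2 (adjusted p = 0.00144, limma). Of the prostanoid receptor genes, named after their values were seen, Ptger1, Ptger3 and Ptger4 stayed at 0.103 FPKM or less, Ptger2 was at 0, and the prostacyclin receptor Ptgir reached 1.12 FPKM in its highest library.

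The list of other vasoactive peptides held 28 genes, of which 6 were tested. In Ep2, 3 were higher than in Ctrl and none lower, beside 23.9% and 29.3% of all tested genes. Nppb, the B-type natriuretic peptide, measured 1.86, 1.96 and 1.86 FPKM in Ctrl, 2.57, 2.6 and 2.41 FPKM in Ep1, and 5.11, 3.15 and 3.86 FPKM in Ep2. The 3 groups were separate. Groups without overlap made up 41.3% of all tested genes in Ep1 with Ctrl, 59.7% in Ep2 with Ctrl and 54.4% in Ep2 with Ep1. The Ep2 mean of Nppb, 4.04 FPKM ± 0.991 (SD, n = 3), was 2.13-fold the Ctrl mean (log2 fold change 0.78, SE 0.12, adjusted p = 0.000477, limma). In Ep1 the log2 fold change was 0.28, with an adjusted p of 0.146 in limma.

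**Figure D5:**
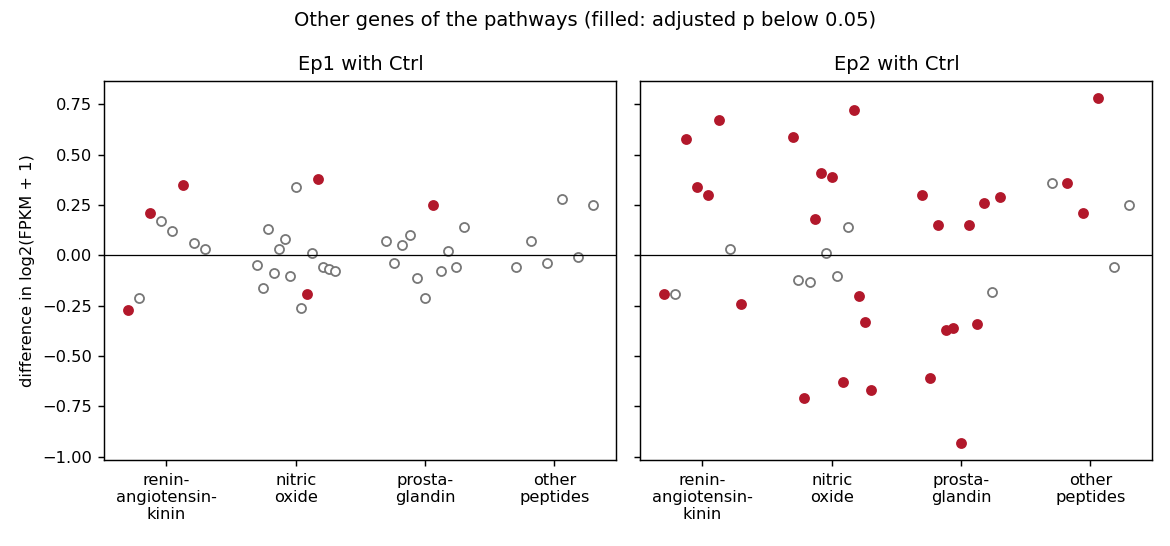
Differences in log2(FPKM + 1) from Ctrl of the 40 tested pathway genes other than the members, by list, in Ep1 (left) and Ep2 (right); filled points have an adjusted p below 0.05. Few points are filled in Ep1 and most in Ep2, on both sides of 0. In the Ep2 panel Ptges2 lies lowest and Nppb highest.

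The tested genes most alike to each tested member were taken by Pearson's r of log2(FPKM + 1) over the 9 libraries, which share the 3 groups, as a description. For Ptgs2 they were Nr4a1 (r = 0.986) and Klf4 (r = 0.985), with Nr4a1 at 4.53 FPKM ± 0.455 (SD, n = 3) in Ctrl, 14.5 FPKM ± 5.72 (SD, n = 3) in Ep1 and 11.9 FPKM ± 4.76 (SD, n = 3) in Ep2. For Ace they were Car9 (r = 0.985) and Mindy2 (r = 0.983), with Car9 at 1.83 FPKM ± 0.182 (SD, n = 3) in Ctrl, 1.89 FPKM ± 0.363 (SD, n = 3) in Ep1 and 4.39 FPKM ± 0.32 (SD, n = 3) in Ep2. For Ptges they were Cttn and Tmem63a (both r = 0.989), for Ece1 Papolg (r = 0.956) and Macrod1 (r = 0.941), and for Ptgs1 Sdhaf4 (r = 0.962) and Draxin (r = 0.939).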

How the data were processed

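RNA of 9 libraries of b.End3 cells was sequenced with paired-end reads. After alignment to mouse, the authors deposited 1 FPKM value per gene and library, scaled by gene length and by library size. The submitters' processing notes list Bowtie 0.12.2 and mm8, the methods name GRCm39, and the listed positions overlap RefSeq GRCm38.p6 for 99.8% of 37795 genes and GRCm39 for 10.9% of 50453, so positions are given on GRCm38. The counting tool and its strand setting are not given in the sources used here. Only the start regions (RefSeq) and the Ace transcripts (GENCODE M39) come from reference tables, and the Ace primers from the study's supplement.

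FPKM multiplied by gene length gave whole fragments (tolerance 0.05) for all values. Values were tested as log2(FPKM + 1) for the 11727 genes that reached an FPKM of 1 in 3 or more libraries, in 1 limma 3.58.1 model (variance trend, robust, no covariate, R 4.3.3) over 9 libraries, with Benjamini-Hochberg adjustment within each comparison. Members under the filter were compared with exact two-sided permutation tests (scipy 1.17.1), which cannot go below 0.1. Tables and plots used Python 3.11.15, pandas 2.3.3, numpy 2.4.6 and matplotlib 3.10.9. The fit was also run on simulated data, with known changes in a small set of genes and a fixed spread. In the libraries here 53.2% of tested genes were past the test in Ep2 against Ctrl. The simulated run therefore does not show how the fit behaves on them.

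The members, the lists and the tests were chosen with earlier results of these data known. Genes named beside the members were the DEGs of each list, the most significant rising and falling gene of each list in Ep1 and Ep2, and the 2 genes most alike to each tested member. Alternatives were median centring, other filters, the replicate number as a block, a pseudocount of 0.1, fits restricted to the groups compared, voom with TMM on recovered fragments, and the omission of each library. A correction for gene length and GC content was chosen after seeing the data. Deviations of same-numbered libraries had correlations of -0.0565 to 0.0744, and those of differently numbered libraries -0.108 to 0.153. The main fit took the libraries as unpaired. Such correlations cannot exclude a pairing or a shared batch.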

Additional observations from a re-analysis of the deposited data

Results flagged for a closer look

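Among the members, the effects of the doses differed by the test of Ep2 with Ep1 for Ace (log2 fold change 0.69, adjusted p = 0.0013, limma) and Ptges (0.33, adjusted p = 0.000672). For both, all 3 Ep2 libraries were above all 3 Ep1 libraries, while 54.4% of all tested genes had separate groups in that comparison. Among the pathway genes named by the rule, the same test was passed by 3 genes whose fitted differences from Ctrl had opposite signs at the 2 doses. These were Prep (log2 fold change of Ep2 with Ep1 -0.27, adjusted p = 0.000674), Arg1 (0.64, adjusted p = 0.00768) and Ass1 (-0.85, adjusted p = 0.000742), each with a difference between Ep1 and Ctrl that was not past the test (adjusted p = 0.625, 0.862 and 0.536).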

How the results depend on the processing

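The calls in Ep1 changed with several alternatives. Of the members, 1 was past the test in Ep1 and 0 with no filter, with the replicate block or with voom, and 0 to 1 when 1 library was left out, with 0 without replicates 1, 2 or 3 of Ctrl or replicates 1 or 3 of Ep1. In each of these fits 1 member, Ptgs2, had an unadjusted p below 0.05. The adjusted p of Ptgs2 in Ep1 ranged from 0.0229 to 0.1 over all 17 alternatives. The pathway genes past the test in Ep1 numbered 6, 2 with no filter, and 1 to 10 when 1 library was left out (2 without replicate 1 of Ctrl, 1 without replicate 2 of Ctrl, 2, 3 and 2 without replicates 1, 2 and 3 of Ep1, and 10 without replicate 1 of Ep2). Over all genes, 1324 were past the test in Ep1, 396 with no filter, 2162 with only the groups compared, and 192 to 2192 when 1 library was left out. The other counts of members and pathway genes past the test stayed within 1.5 times. Of the pathway genes between the doses, 3 were DEGs, 5 with a pseudocount of 0.1 and 6 with voom, and in Ep1 0 were DEGs and 1 with voom. The share of higher genes among those past the test moved from 42.8% to 55.5% under median centring for Ep2 with Ep1, and from 44.9% to 52.7% for Ep2 with Ctrl (50.2% with the length and GC correction). The replicate block rests on replicate numbers that are not known to mark a pairing or a batch. It lost Ptgs2 (adjusted p = 0.0582, limma) and Nosip in Ep1. It gained Ece1 between the doses (adjusted p = 0.0188, limma) and Ptges2 in Ep1, and changed no other call of a named gene. Ece1 between the doses was past the test under 7 of 17 alternatives. Fitted values turned their sign only where neither fit was past the test. With the length and GC correction, Ace went to 0.07, Ptges to 0.06 and Prep to -0.02 in Ep1 with Ctrl, and Ptgs1 to 0.03 in Ep2 with Ctrl. With 1 library left out, the log2 fold change in Ep1 with Ctrl ranged from -0.10 to 0.06 for Ace, -0.04 to 0.02 for Ptges, -0.09 to 0.01 for Arg1 and -0.02 to 0.22 for Ass1. Between the doses it ranged from -0.01 to 0.04 for Ptgs1 and from -0.33 to 0.10 for Ptgs2, where the sign turned without replicate 1 of Ep1. The causes were not tested.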
